A study of Homo sapiens with 9 samples.

Results

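DLEU2, DLEU1, TRIM13, SMC4, and IFT80 are the 5 genes described here, chosen by name as genes of the chromosome 13 and chromosome 3 loci that carry the miR-15/16 hairpins. All 5 had a row among the 14839 genes measured by polyA RNA sequencing. MP41, an established uveal melanoma (UM) cell line, was transfected at 66 nM with a synthetic miR-16 or with the control mimic miR-CTR. Cells were collected 6, 12, 24, and 48 h later. For 0 h there was 1 further library, which is titled as control mimic and was taken here as cells not yet transfected. Each of the 9 conditions was 1 library. No time had a replicate, the variation between cultures at a time is not known, and the counting standard errors (SE) and 95% counting intervals cover counting error only. Every library came from the same line grown in the same medium, so that no other line or genotype entered a comparison. The table names its columns by an ordinal time code and not by hours, and the codes were taken in ascending order against the labelled times.

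Vertebrate miR-16 is made from hairpins at separate loci, each of which also holds a miR-15 hairpin. The hairpins sit inside longer host transcripts, from which the Microprocessor complex cuts them before Dicer releases the mature strand. DLEU2 is a long non-coding RNA and the chromosome 13 host, in a region often lost in chronic lymphocytic leukemia. SMC4, the chromosome 3 host, encodes an ATPase subunit of condensin, which compacts chromosomes for mitosis. DLEU1 is a non-coding neighbour that starts head to head with a DLEU2 start. TRIM13 encodes an endoplasmic reticulum (ER) membrane ubiquitin ligase and lies on the opposite strand within the body of DLEU2. IFT80, on the opposite strand from SMC4 and starting beside it, encodes a subunit of the intraflagellar transport B complex that builds cilia. A synthetic mimic supplies the mature strand without passing through either host, and neither the mimic nor the endogenous mature miRNA is measured in polyA libraries.

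The mature sequences are shown first because the loci make miRNAs with 1 shared seed (bases 2 to 8, in capitals). Sequences and positions of miRNAs are those of RefSeq on GRCh38.p14.
hsa-miR-16-5p: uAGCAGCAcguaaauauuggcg
hsa-miR-15a-5p: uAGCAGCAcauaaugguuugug
hsa-miR-15b-5p: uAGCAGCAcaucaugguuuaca
Both miR-15 strands were identical to miR-16 over their first 9 bases. The same 7-base seed stands in 7 mature human miRNAs of the RefSeq set, of which the ones not shown are miR-195-5p, miR-424-5p, miR-497-5p, and miR-6838-5p.

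The 2 miR-16 hairpins are shown because each comes from a different host, and they carry the same mature strand (in capitals) between different flanks.
MIR16-1: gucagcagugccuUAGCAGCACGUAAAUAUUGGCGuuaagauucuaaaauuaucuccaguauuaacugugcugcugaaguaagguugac
MIR16-2: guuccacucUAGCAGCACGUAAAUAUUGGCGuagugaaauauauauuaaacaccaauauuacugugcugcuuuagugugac
MIR16-1 (chr13:50048973-50049061, reverse strand) lies in intron 6 of the 13 introns of the longest annotated DLEU2 transcript that spans it, 128 bases from the nearest annotated DLEU2 exon. MIR15A, at chr13:50049119-50049201, is in the same intron, although an exon of another annotated DLEU2 transcript covers 13 bases of it. MIR16-2 (chr3:160404745-160404825, forward strand) and MIR15B (chr3:160404588-160404685) share intron 5 of the 23 introns of the longest coding SMC4 transcript that spans them, at 241 and 84 bases from the nearest SMC4 exon. In GENCODE 29 the hairpins of chromosome 13 are spanned by 6 of 8 DLEU2 transcripts and those of chromosome 3 by 13 of 27 SMC4 transcripts. Introns are mostly absent from mature polyA RNA, so the values below count host transcripts and not hairpins.

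DLEU2 occupies chr13:49982552-50125720 on the reverse strand, and DLEU1 chr13:50082171-50723236 on the forward strand. TRIM13 occupies chr13:49995888-50020481 on the forward strand. SMC4 (forward) and IFT80 (reverse) occupy chr3:160399274-160434962 and chr3:160256986-160399880. Whether the reads were counted by strand is not given in the sources used here, which matters at both loci. Of the 5103 annotated exon bases of DLEU2, 18.0% also belong to another gene, 346 bases of them to TRIM13. The shared share was 35.7% for IFT80, 25.6% for SMC4, 17.7% for TRIM13, and 4.29% for DLEU1. SMC4 and IFT80 overlap over 607 exon bases, and 1953 exon bases of IFT80 lie in AC079594.2, an annotated gene on the same strand that spans IFT80 and part of TRIM59. SMC4 also shares 1561 exon bases with TRIM59 on the other strand, and TRIM13 shares 1086 with KCNRG on its own strand. Reads over these bases cannot be given to 1 gene from this table.

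Recovered sequencing depth was between 20280000 and 27370000 reads per library, and library medians lay between 9.13 and 9.17 on the deposited log2 scale. The 7 melanocyte lineage markers (MITF, PMEL, MLANA, TYR, DCT, TYRP1, and SOX10) had values from 12.29 to 17.88, and with miR-16 against miR-CTR their late log2 differences ran from −0.095 for DCT and −0.08 for MITF to 0.125 for TYR and 0.19 for PMEL. None of the 4 markers of other cell types (PTPRC, EPCAM, PECAM1, and DCN) has a row in the table.

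Both hosts were lower in the late miR-16 libraries than in the late miR-CTR libraries, and the 3 neighbours did not pass the threshold. For each time the log2 fold change (logFC) was taken as miR-16 minus miR-CTR on the deposited scale. Averages of 6 and 12 h and of 24 and 48 h made the early and late logFC. Genes below −0.5 were called down-regulated and those above 0.5 up-regulated. DLEU2 had a late logFC of −0.67 (counting SE 0.189), which is 63.1% of its level with miR-CTR. SMC4 had a late logFC of −0.58 (counting SE 0.0285), or 66.9% of its miR-CTR level. These 2 of the 5 genes were called down-regulated and none up-regulated, where 5.73% of all genes were called down-regulated and 7.76% up-regulated. TRIM13 stood at 0.30 (counting SE 0.0473), IFT80 at 0.17 (counting SE 0.0974), and DLEU1 at −0.07 (counting SE 0.0786). Over all genes the median late logFC was 0.01. Both calls rested on the 48 h libraries: at 48 h alone the hosts passed −0.5, as did 8.96% of all genes, whereas at 24 h alone neither did, and 5.26% of all genes were down-regulated. No member was called up-regulated at 24 h (7.24% of all genes) or at 48 h (10.4%).

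The 8 transfected libraries form 4 pairs matched by time, and a limma fit of mimic and time over them, chosen after the data had been seen, tested the mean logFC over the 4 times with 3 residual degrees of freedom per gene. It takes the times as repeats of 1 difference, so that a difference growing with time enters its error. At an adjusted p below 0.05 (Benjamini-Hochberg over all genes) it called 5.73% of all genes down-regulated and 4.93% up-regulated, and none of the 5 members. By unadjusted limma p below 0.05 SMC4 was the 1 member to pass. Of all 14839 genes, 2298 passed this limit as down-regulated and 2210 as up-regulated, so it does not set SMC4 apart. SMC4 had a mean logFC of −0.35 (SE 0.104, limma adjusted p = 0.0594) and was lower with miR-16 at 4 of 4 times. DLEU2 had −0.33 (SE 0.173, limma adjusted p = 0.229) and was lower at 3 of 4. For TRIM13 the mean was 0.17 (SE 0.077, limma adjusted p = 0.176), higher at 4 of 4 times. IFT80 and DLEU1 had limma adjusted p of 0.536 and 0.655. The exact two-sided sign-flip test over 4 pairs cannot go below p = 0.125, the value it gave for SMC4 and TRIM13.

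**Figure D1:**
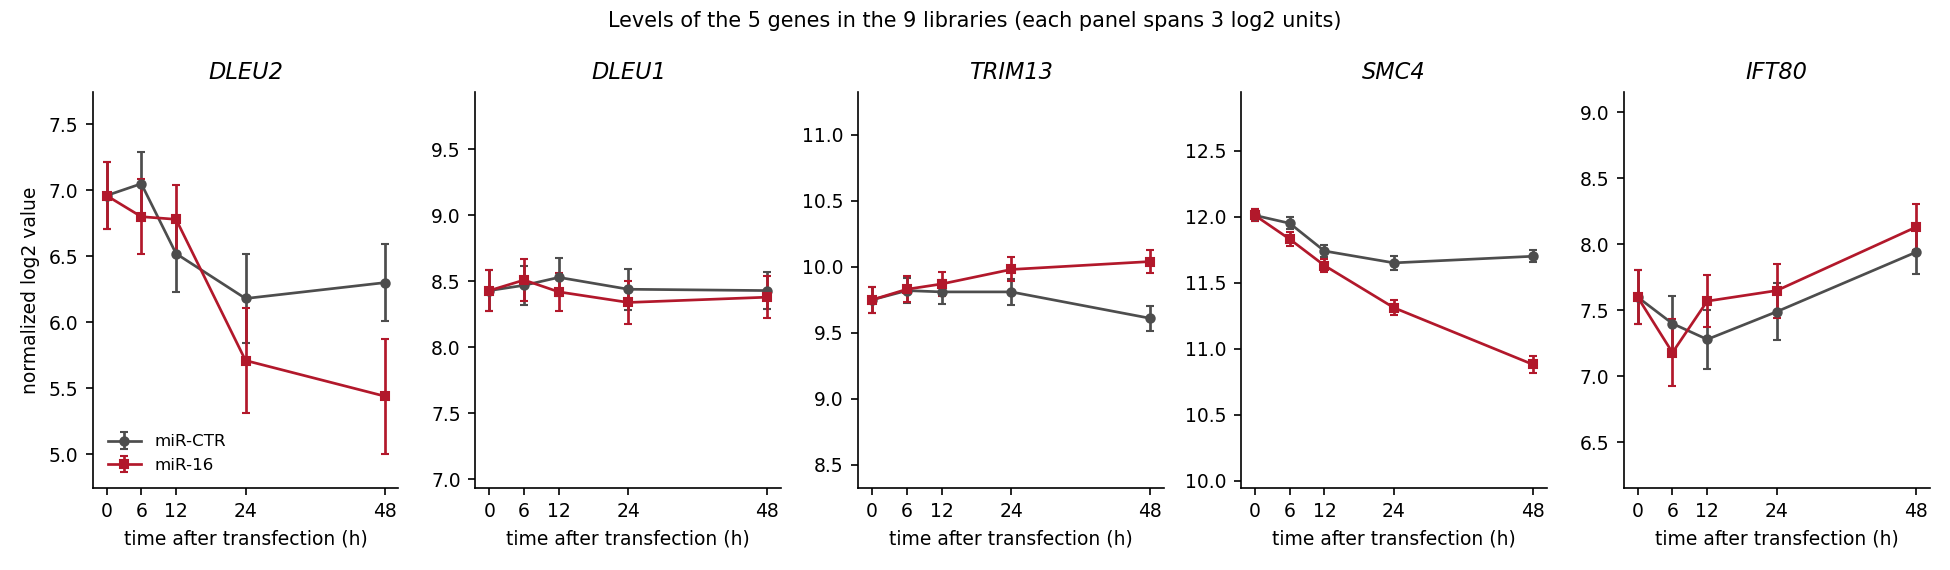
Normalized log2 value of each gene (vertical axis, each panel spanning 3 log2 units) against hours after transfection, with miR-CTR in gray circles and miR-16 in red squares. Both lines start from the 1 library at 0 h, taken as untransfected, each point is 1 library, and bars are 95% counting intervals. At 48 h SMC4 stands at 10.88 with miR-16 and 11.70 with miR-CTR, while the DLEU1 lines stay between 8.34 and 8.53.

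Among the members, DLEU2 varied most over the 9 libraries. Its normalized log2 value was 6.96 at 0 h. In the miR-CTR series it was 7.05, 6.52, 6.18, and 6.30 at 6, 12, 24, and 48 h. In the miR-16 series it was 6.80, 6.78, 5.71, and 5.44. The late miR-16 libraries held the lowest values, both below the lowest of the other 7 libraries (6.18), and the miR-CTR series had itself come down after 6 h. Its range of 1.61 was wider than that of 93.4% of all genes, whose median range was 0.66. The logFC was −0.25, 0.26, −0.47, and −0.86 at these times, and of the 4 single times the 95% counting interval lay off 0 at 48 h only (−1.39 to −0.33). DLEU2 is a weak gene here, with 40 to 138 reads per library and a mean above that of only 20.3% of genes. Among the 25% of genes with the lowest mean, 8.52% were called down-regulated late.

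DLEU2 was also lower late in the control series. From 0 h to the late window it moved by −0.72 (counting SE 0.174) with miR-CTR and by −1.39 (counting SE 0.199) with miR-16. With miR-16 its late change ranked 65 from the lowest of the 14839 genes. Against a threshold of −0.5 on this change, DLEU2 passed with both mimics and SMC4 with miR-16 only. Over all genes 9.79% passed with miR-CTR and 11.7% with miR-16. The mimics share the 0 h library, and in the DLEU2 change from 0 h the part that follows transfection itself cannot be told apart from time in culture.

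SMC4 gave the most precise series of the 5 genes, since 1782 to 4147 reads stood behind each value. It had 12.01 at 0 h, its highest value. With miR-CTR it went to 11.95, 11.74, 11.65, and 11.70 at 6, 12, 24, and 48 h. With miR-16 the values were 11.83, 11.63, 11.31, and 10.88. The miR-16 library was the lower one at each time, and every value after 0 h was below it. The logFC values of −0.12, −0.11, −0.34, and −0.82 had 95% counting intervals off 0 at all 4 times. At 48 h SMC4 stood at 56.6% of its miR-CTR level and at 45.7% of its 0 h level. Its mean value was above that of 90.0% of genes, and among the 25% of genes with the highest mean 4.45% were called down-regulated late.

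From 0 h to the late window SMC4 moved by −0.34 (counting SE 0.0288) with miR-CTR and by −0.92 (counting SE 0.0321) with miR-16. In the early window its logFC was −0.12 (counting SE 0.0242). No member was called early, when 1.45% of all genes were down-regulated and 2.04% up-regulated, and the early logFC of the other 4 genes was between −0.04 and 0.04. In bulk RNA, fewer cells with a transcript and less of it per cell cannot be told apart.

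**Figure D2:**
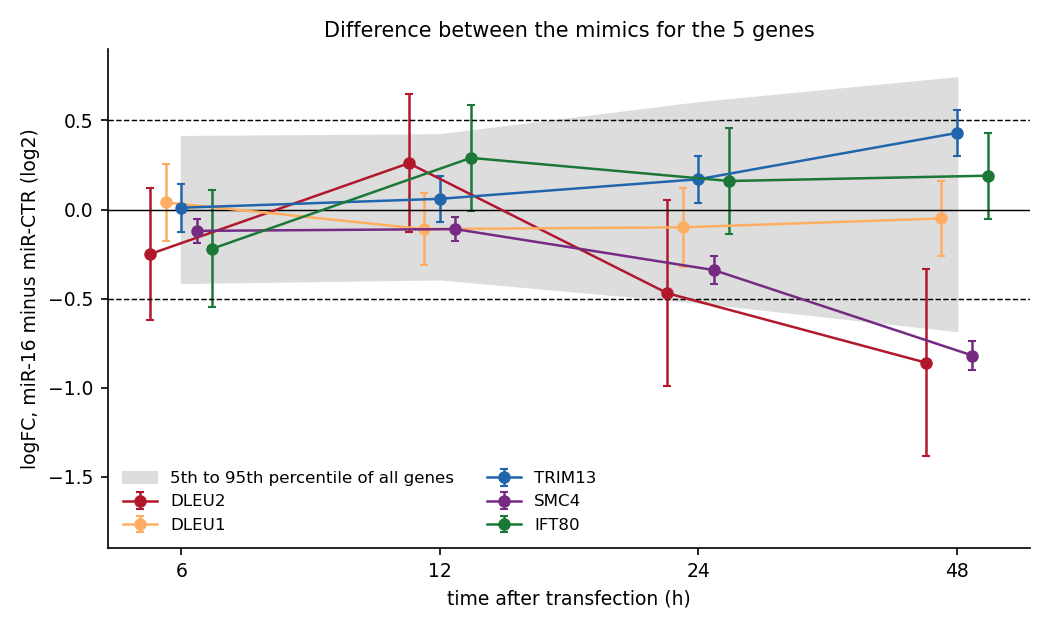
logFC of the 5 genes (vertical axis, log2, miR-16 minus miR-CTR) at 6, 12, 24, and 48 h, with 95% counting intervals as bars and points set slightly apart for legibility. The gray band runs from the 5th to the 95th percentile of all genes, from −0.68 to 0.74 at 48 h, and dashed lines mark the 0.5 threshold: DLEU2 and SMC4 lie below the band at 48 h and the other 3 genes within it.

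DLEU1 was nearly flat. It had 8.43 at 0 h. Values at 6, 12, 24, and 48 h were 8.47, 8.53, 8.44, and 8.43 in the miR-CTR libraries, beside 8.51, 8.42, 8.34, and 8.38 in the miR-16 libraries. Both late miR-16 values were the lowest of the 9, by less than the counting error. Only 0.95% of genes had a smaller range than its 0.19. The 95% counting interval of its late logFC ran from −0.23 to 0.08, so that a difference of the size seen for DLEU2 or SMC4 lay outside it.

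TRIM13, the antisense partner of DLEU2, was higher late in the miR-16 series but was not called. Its value was 9.75 at 0 h. The miR-CTR libraries had 9.82, 9.81, 9.81, and 9.61 in order of time, and the miR-16 libraries 9.83, 9.87, 9.98, and 10.04. The highest of the 9 values was that of miR-16 at 48 h and the lowest that of miR-CTR at 48 h, so that the logFC of 0.43 at that time had a contribution from each mimic: 0.29 from 0 h with miR-16 and −0.14 with miR-CTR. At 24 h the logFC was 0.17, and at 6 and 12 h it was 0.01 and 0.06. The 95% counting interval of the late logFC was 0.21 to 0.39, under the threshold and off 0. TRIM13 had 792 to 1019 reads per library.

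IFT80 was higher at 48 h than at 0 h with either mimic. It had 7.60 at 0 h. The series ran 7.40, 7.28, 7.49, and 7.94 for miR-CTR, beside 7.18, 7.57, 7.65, and 8.13 for miR-16. The highest values were those of 48 h with either mimic. From 0 h to 48 h it moved by 0.34 (counting SE 0.135) with miR-CTR and by 0.53 (counting SE 0.137) with miR-16. Its logFC was −0.22 at 6 h and 0.29, 0.16, and 0.19 afterwards, each with a 95% counting interval that held 0, at 125 to 287 reads per library.

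Compared per length, SMC4 was the strongest gene of the 5 at 0 h. Its linear normalized value per kb of annotated exon was 488 (95% exact Poisson interval 472 to 503), against 106 for TRIM13 (99.3 to 114). DLEU1 had 27.7 (24.8 to 30.9), IFT80 26.9 (23.2 to 31.1), and DLEU2 24.2 (20.1 to 29), and the intervals of these 3 overlapped. The chromosome 3 host was thus far above the chromosome 13 host. All annotated exons of a gene were summed for its length, used or not in MP41. Bases shared with other genes were included, which make up 35.7% for IFT80, 18.0% for DLEU2, and 4.29% for DLEU1. How reads over these bases were counted is not known, so the order of these 3 genes is not settled.

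The log2 ratio of host to neighbour within a library was lower at 48 h than at 0 h at both loci and with either mimic. The ratio of SMC4 to IFT80 was 4.41 at 0 h. After miR-CTR it was 4.55, 4.46, 4.16, and 3.76 at 6, 12, 24, and 48 h. After miR-16 it was 4.65, 4.06, 3.66, and 2.75. It was lowest at 48 h with either mimic, and lower with miR-16 than with miR-CTR from 12 h on. For DLEU2 to TRIM13 the ratio went from −2.79 at 0 h to −3.31 with miR-CTR and −4.60 with miR-16 at 48 h. These ratios are not corrected for length and are compared between libraries only.

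Over the 9 libraries DLEU2 and SMC4 had a Pearson correlation of 0.93 (Spearman 0.88), the highest of the 10 pairs of members. DLEU2 and DLEU1 had 0.65, DLEU2 and TRIM13 −0.57, SMC4 and IFT80 −0.68, and TRIM13 and IFT80 0.18. The points share the 0 h library and the time course, so these values describe the 9 libraries and carry no p-value. The genes most like each member were read from the 11129 genes above the lowest 25% of mean value. For DLEU2 they were BCAS2 (Pearson r of 0.980), a splicing factor, CENPA (0.977), the histone H3 variant of centromeres, and SKA2 (0.976), a kinetochore protein. CENPA ranged from 8.73 to 9.96 over the libraries and had a late logFC of −0.59, while SKA2 had −0.28 and BCAS2 −0.20.

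For SMC4 the closest genes were ICMT (0.990), which methylates prenylated proteins, SLC25A33 (0.990), a mitochondrial pyrimidine carrier, and FN3KRP (0.987), a ketosamine kinase. Their late logFC were −0.68, −0.44, and −0.41. TRIM13 was most like EHD3 (0.990), DNPEP (0.975), and CNPY2 (0.963). EHD3, an endosomal transport protein, had a late logFC of 1.09, while DNPEP, an aspartyl aminopeptidase, and CNPY2 had 0.36 and 0.38. IFT80 was most like CTD-3157E16.2 (0.986), SNX18 (0.979), and VASH1 (0.977), with late logFC between 0.17 and 0.26. DLEU1 had the lowest best value, with FXR2 (0.948), IL17RA (0.929), and CNOT4 (0.927). By Spearman correlation none of these 15 genes stayed among the 3 closest of its member.

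**Figure D3:**
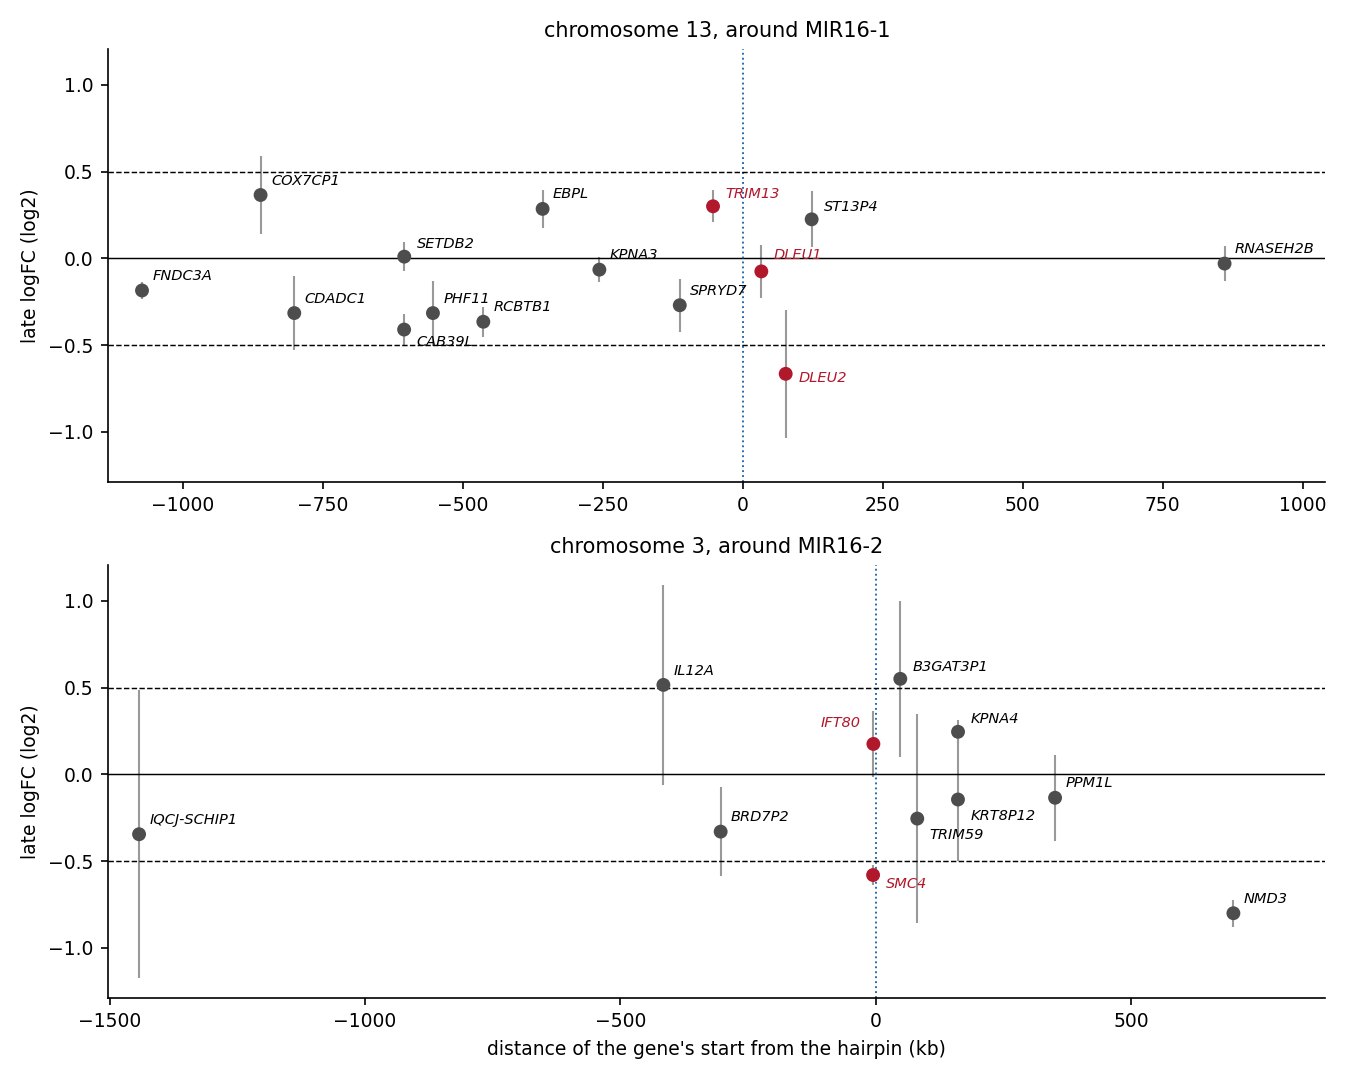
Late logFC (vertical axis, log2) of every measured gene annotated within 1 Mb of MIR16-1 (top) or MIR16-2 (bottom) against the distance of its start from the hairpin in kb. Red points are the 5 described genes, bars are 95% counting intervals, dashed lines mark the 0.5 threshold, and the dotted line marks the hairpin. Around MIR16-1 DLEU2 alone is past the threshold. Around MIR16-2 NMD3 and SMC4 lie below −0.5, and IL12A and B3GAT3P1 lie above 0.5.

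Around MIR16-1, 15 genes were measured of the 48 annotated within 1 Mb, of which DLEU2 was the only one called late. Over all genes 5.73% were called down-regulated late and 7.76% up-regulated, so 1 call here is near the background. The 12 that are not members had a median late logFC of −0.12. The adjoining SPRYD7 had −0.27 (counting SE 0.078). ST13P4, a pseudogene within DLEU1, had 0.23 (counting SE 0.0826), and RNASEH2B, a subunit of ribonuclease H2 beyond DLEU1, had −0.03 (counting SE 0.051). CAB39L was the lowest of the others at −0.41 (counting SE 0.0469).

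Around MIR16-2, 11 of 33 annotated genes were measured, and SMC4 and NMD3 were called down-regulated. The shares over all genes were again 5.73% down-regulated and 7.76% up-regulated. NMD3, the nuclear export adaptor of the large ribosomal subunit, starts 699.9 kb from the hairpin and was lower with miR-16 at every time, with logFC of −0.44, −0.36, −0.79, and −0.81 and a late logFC of −0.80 (counting SE 0.0394). IL12A and the pseudogene B3GAT3P1 were called up-regulated at 0.52 and 0.55, with counting SE of 0.294 and 0.23, so that the interval of IL12A held 0. TRIM59, whose end overlaps that of SMC4, had −0.26 (counting SE 0.306). KPNA4, an importin subunit, had 0.25 (counting SE 0.0361). BRD7P2, the measured gene next to IFT80, had −0.33 (counting SE 0.131). The 95% counting interval of TRIM59 was wide enough to hold both 0 and the value of SMC4, whereas those of IFT80 and KPNA4 lay above the value of SMC4.

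Most condensin subunits were lower in the late miR-16 libraries. Of the 8 measured subunits, 5 were called down-regulated late and none up-regulated, with a median late logFC of −0.56 beside 0.01 for all genes and 5.73% of all genes called down-regulated. SMC2, the ATPase partner of SMC4 in both condensins, had −0.54 (counting SE 0.0467). Of the subunits of condensin I, NCAPG had −0.61 (counting SE 0.0334), NCAPH had −0.62 (counting SE 0.0397), and NCAPD2 had −0.42 (counting SE 0.0238), short of the threshold. In condensin II, NCAPG2 had −0.57 (counting SE 0.03), whereas NCAPH2 had −0.17 and NCAPD3 0.00. None of the 8 passed −0.5 at 24 h alone (5.26% of all genes), and 6 did at 48 h alone (8.96% of all genes). The median late change of a subunit from 0 h was −0.20 in the miR-CTR series and −0.62 in the miR-16 series. SMC4 is itself 1 of the 5, so that 4 of the other 7 subunits were called. The list was chosen with earlier results of these data known, so its share beside that of all genes is descriptive only. In the time-matched limma fit none of the 8 had an adjusted p below 0.05, the lowest being that of SMC4 and the next 0.0599 for NCAPG.

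Cohesin, the related ring that holds sister chromatids, had 8 measured genes and no call, although all 8 lay below 0 (median −0.18). Its lowest values were PDS5B with −0.43 and SMC1A with −0.24, and its highest were STAG2 with −0.08 and PDS5A with −0.10. In the SMC5/6 complex, which acts in DNA repair, SMC5 was the 1 gene of 5 called down-regulated, with −0.54 (counting SE 0.0735), beside 5.73% of all genes. SMC5 was also the 1 gene of this complex called by the time-matched limma fit, which called 5.73% of all genes down-regulated. NSMCE4A had −0.27, NSMCE2 −0.06, and NSMCE1 0.18.

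IFT80 lay in the middle of its own complex. The 17 genes of intraflagellar transport B had a median late logFC of 0.18, and 14 of them lay above 0. None passed 0.5 (7.76% of all genes did) or −0.5 (5.73%). IFT20 stood at the threshold with 0.50 and IFT57 at 0.47, and the lowest were HSPB11 with −0.17 and TTC26 with −0.03. The 6 genes of intraflagellar transport A, the retrograde counterpart, had a median of 0.21 and no call, from −0.15 for IFT122 and −0.07 for TTC21B to 0.36 for IFT43 and WDR35 and 0.38 for IFT140. The time-matched limma fit called IFT43 up-regulated, beside 4.93% of all genes, and no other gene of either transport complex. TRIM13 was the highest of the 11 ER-membrane ubiquitin ligases, of which none was called and whose median was −0.07. SYVN1, the ligase of ER-associated degradation, had 0.17, and MARCH6 and TRIM59 had the lowest values with −0.34 and −0.26.

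**Figure D4:**
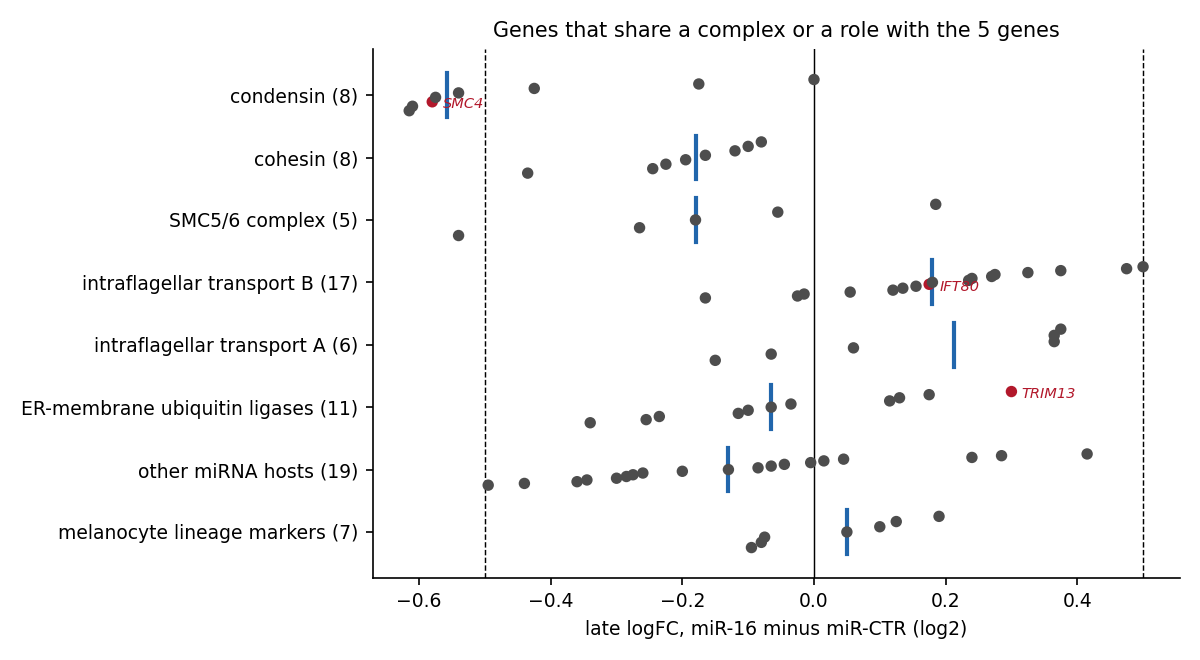
Late logFC (horizontal axis, log2) of each measured gene of 8 lists, with the number of measured genes in brackets, members in red, list medians as blue bars, and dashed lines at the 0.5 threshold; the vertical offset within a list carries no value. Condensin has its median at −0.56, left of the threshold, and intraflagellar transport B at 0.18.

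Genes that carry other miRNAs in their transcripts were read beside the 2 hosts. Of 19 measured hosts of other miRNAs none was called in the late window, and their median was −0.13. Over all genes 5.73% were called down-regulated late and 7.76% up-regulated, and a list this short can hold few calls. MCM7, the replication helicase subunit that hosts the miR-106b cluster, came closest at −0.495 (counting SE 0.0175) and stood at −0.73 at 48 h. CTDSP1, a host of miR-26b, had −0.44. The time-matched limma fit called PANK2, CTDSPL, and CTDSP1 of the 19 down-regulated at an adjusted p below 0.05, beside 5.73% of all genes. MIR17HG, the host of the miR-17 cluster, had 0.41 with a counting SE of 0.203, and MIR222HG 0.28 with 0.261.

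A match to the miR-16 seed was found in 2 of the 5 members, neither of them in a 3′UTR. Matches were 7mer-m8 (the reverse complement of bases 2 to 8), 8mer (the same followed by A), or 7mer-A1 (bases 2 to 7 followed by A), looked for in the longest 3′UTR annotated for a coding gene and in the longest transcript of the others. The 3′UTRs of SMC4 (1153 bases), TRIM13 (5287 bases), and IFT80 (1539 bases) held none, and no 6mer either. Over the table, 29.2% of 11570 coding genes had a match in this region. No condensin subunit had one (0 of 8), although a 6mer was present in the 3′UTRs of SMC2, NCAPG, and NCAPD2. The sites of the members are shown with that of NMD3, the called neighbour, with 11 bases on either side and the match in capitals.
DLEU2: tgggagatcgaTGCTGCTtgtcagctgtt
DLEU1: acagttttgttTGCTGCTgtgtctttaga
NMD3: cacatcaaaaaTGCTGCTtttaaaatttt
The DLEU2 match is at chr13:50071598-50071604, bases 361 to 367 of the longest DLEU2 transcript, and 1 of the 8 annotated DLEU2 transcripts holds a match. DLEU1 has its match at chr13:50105232-50105238, and 4 of its 36 transcripts hold one. In NMD3 the match lies in the 3′UTR, at chr3:161251665-161251671. Over whole transcripts, coding parts included, a match was present in 1 of 27 transcripts of SMC4, 4 of 27 of IFT80, and 0 of 8 of TRIM13. Among other non-coding genes 29.4% had a match in their longest transcript. A match is a description of letters, and whether these were bound was not measured here.

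Windows around the distal DLEU2 start and the DLEU1 start are shown because these genes differed in late logFC. RefSeq gives DLEU2 a distal start, 43372 bases from the start of DLEU1, and a proximal start. The proximal one is head to head with DLEU1, 128 bases from its start on the other strand. Its window shares 227 bases with that of DLEU1 and is not printed. Each window runs from 250 bases before to 50 bases after a start, on the strand of its gene, with motif matches in capitals.
DLEU2 distal start, chr13:50125492-50125791: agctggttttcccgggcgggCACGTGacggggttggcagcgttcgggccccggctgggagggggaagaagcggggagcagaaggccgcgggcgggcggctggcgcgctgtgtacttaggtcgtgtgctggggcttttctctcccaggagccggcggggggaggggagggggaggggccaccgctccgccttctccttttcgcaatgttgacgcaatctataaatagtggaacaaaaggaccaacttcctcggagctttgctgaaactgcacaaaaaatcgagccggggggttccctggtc
DLEU1 start, chr13:50081919-50082218: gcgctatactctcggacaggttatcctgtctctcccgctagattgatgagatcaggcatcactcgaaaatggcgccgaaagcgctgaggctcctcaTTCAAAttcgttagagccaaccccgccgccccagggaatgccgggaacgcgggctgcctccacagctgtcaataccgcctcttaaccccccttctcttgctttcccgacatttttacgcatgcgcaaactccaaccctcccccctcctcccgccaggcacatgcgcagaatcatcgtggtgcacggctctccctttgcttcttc
The motifs searched on both strands were the CCAAT box, the cell cycle homology region TTTGAA, the E2F sequences TTTGGCGC, TTTCGCGC, TTTCCCGC, and GCGGGAA, and the E-box CACGTG. The distal DLEU2 window held 1 CACGTG, which 7.26% of 35116 promoter windows have. TTTGAA, present in 15.2% of windows, was found in the DLEU1 window, where it is also within the proximal DLEU2 window, in the window of the upstream SMC4 start, and in that of IFT80. IFT80 also held GCGGGAA (6.55% of windows). CCAAT (34.6%), TTTGGCGC (0.652%), TTTCGCGC (0.515%), and TTTCCCGC (1.63%) were in none of the 6 windows of these 4 genes. The upstream SMC4 window and that of IFT80 overlap by 76 bases with starts 425 bases apart, and the letters in a window do not show which start was used in MP41.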

How the data were processed

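The 9 conditions of MP41 cells were measured by polyA RNA sequencing, in 1 library each. Per the submitters' processing notes, reads were handled with FastQC, STAR 2.4.0a, and featureCounts of Subread 1.5.0-p3 on hg38/GRCh38; their roles and settings are not given in the sources used here. The authors deposited normalized log2 values with 2 decimals (a decimal comma in the file). Every low linear value of a library was a whole multiple of a step of 0.8531 to 1.1484, within rounding, so the deposited form is log2(reads / size factor + 1), and dividing by the step gave the reads.

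The members and lists were chosen with earlier results of these data known. Besides the 5 members, the text names all condensin genes, the 2 lowest and 2 highest late logFC of each other list, neighbours within 1 Mb that were called or adjoin a member, and the 3 genes of highest Pearson correlation. CAB39L, and PANK2 and CTDSPL for their limma calls, were named after their values were seen. KPNA4, which was not called and does not adjoin a member, is also named outside these rules.

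Symbols were joined to GENCODE 29 (12985 of 14839 matched 1 gene). On simulated libraries of 14839 genes, 199 of 200 genes changed 2-fold were called in the late comparison, as were 179 of 14639 unchanged genes. The simulated reads were Poisson counts without variation between cultures, so these counts are not an error rate for the real libraries. Conditions had no replicate; the only p-values are those of the time-matched limma 3.58.1 fit (R 4.3.3, intensity trend, Benjamini-Hochberg adjustment) and of the exact sign-flip test over 4 pairs, both added after the data had been seen. The counting SE treats the recovered reads as Poisson counts and covers counting error only. Alternatives were another pseudocount, quantile normalization, median-gene centring, the 0 h reference, single times, other thresholds, a filter on low values, and other definitions of likeness and of a site. Python 3.11.15, pandas 2.3.3, and numpy 2.4.6 were used.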

Additional observations from a re-analysis of the deposited data

Results flagged for a closer look

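For 2 of the 5 genes the logFC stood on opposite sides of 0 at 2 time points, with a 95% counting interval of the change that lay off 0. There were 30 combinations of a gene and 2 times, and 4 met this. They are not separate, since both of DLEU2 use 12 h and both of IFT80 use 6 h. Of the single logFC in them, only that of DLEU2 at 48 h had a 95% counting interval off 0. The share of all genes meeting this rule was not computed, so 4 of 30 has no background beside it. The logFC of DLEU2 was 0.26 at 12 h, and the values of −0.47 and −0.86 at 24 and 48 h differed from it by −0.73 (counting SE 0.33, interval −1.38 to −0.08) and −1.12 (counting SE 0.333, interval −1.77 to −0.47). IFT80 went from −0.22 at 6 h to 0.29 at 12 h, a change of 0.51 (counting SE 0.225, interval 0.07 to 0.95). It stood at 0.19 at 48 h, a change of 0.41 from 6 h (counting SE 0.208), whose interval began at 0.003. With 1 library per condition the difference between times was not tested against the variation between cultures.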

How the results depend on the processing

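DLEU2 and SMC4 kept a negative late logFC in all 14 alternative values and passed −0.5 in 10 of them, the exceptions being 24 h alone (−0.47 for DLEU2 and −0.34 for SMC4) and the mean of all 4 times in the limma fit of mimic and time, chosen after seeing the data (−0.33 and −0.35, with TRIM13 at 0.17). At 48 h alone they stood at −0.86 and −0.82. With the 0 h library as the reference the late values were −1.39 for DLEU2 and −0.92 for SMC4, and the early ones −0.28 for SMC4 and −0.23 for IFT80. TRIM13 had 0.43 at 48 h alone and 0.17 at 24 h alone, and IFT80 0.29 at 12 h alone. Of the 2 calls among the members, 1 (DLEU2) was past a 1.5-fold threshold and 0 passed 0.5 at both 24 and 48 h. A pseudocount of 8, quantile normalization, and centring on the median gene moved no late member value beyond its counting error.

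The 851 down- and 1151 up-regulated genes became 1736 and 2095 with the 0 h reference, 535 and 441 without the lowest 25% of mean value, and 412 and 598 where 0.5 had to be passed at both late times. At 48 h alone 1330 genes were down-regulated. With the 0 h reference, 2 cohesin genes, 3 other miRNA hosts, 1 ER-membrane ubiquitin ligase, and 5 neighbours were down-regulated. With miR-CTR as the reference these counts were 0, 0, 0, and 1. Condensin went from 5 to 6 genes down-regulated. Beside these, 11.7% of all genes were down-regulated with the 0 h reference. Up-regulated with it were 5 other hosts and 1 gene each of both intraflagellar transport complexes and the ligases (0 in each before), beside 2095 of all 14839 genes. With 8mers only, 0 members had a seed match, and with 6mers counted too 2 had one. By Spearman correlation 0 of the 3 closest genes of each member were kept.

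Libraries were paired by time in the limma fit, in which none of the 5 genes had an adjusted p below 0.05; replicate numbers give no further pairing, since each condition is 1 library. Depth limits DLEU2 and IFT80 most, and the absence of replicates limits every value. The mapping of time codes to hours was not given by a label.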
